A study of Macaca mulatta with 2 samples.

Results

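Iron storage and transport genes were examined in bulk RNA-seq of macaque optic nerve. The genes were taken by symbol from the deposited table of TPM (the share of a transcript among all length-corrected reads of a library). Of 9 genes named, 8 were among the 16684 genes listed: the ferritin subunits *FTH1* and *FTL*, the transferrin receptors *TFRC* and *TFR2*, the ferroxidases *CP* and *HEPH*, the iron exporter *SLC40A1* and the iron importer *SLC11A2*. The ninth, transferrin (*TF*), was not analysed here. The nerves were wild-type and untreated *Macaca mulatta* tissue, 1 condition with 2 libraries named Rep1 and Rep2. The study's methods give a 12-year-old male, whose eyes were collected after death, as the source, whereas the deposited design speaks of 2 macaques, so the libraries are nerves of 1 animal or of 2. There was no second group, and the smallest two-sided p that an exact sign test allows with 2 libraries is 0.5, so levels and the spread between libraries are described without tests.

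Iron is needed for the lipid and cholesterol synthesis of myelin and for mitochondrial respiration, and oligodendrocytes are known as the most iron-rich cells of the central nervous system. Iron enters most cells bound to transferrin through the receptor encoded by *TFRC*, leaves the endosome through the divalent metal transporter encoded by *SLC11A2*, and is stored in a shell of ferritin heavy and light chains. It leaves the cell through ferroportin, encoded by *SLC40A1*, and the copper ferroxidases ceruloplasmin (*CP*) and hephaestin (*HEPH*) oxidise it for loading onto transferrin. Several of these mRNAs carry an iron-responsive element, a short stem-loop that binds iron regulatory proteins when iron is low. In a 5′ UTR the bound protein blocks translation, and in a 3′ UTR it protects the mRNA from decay.

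The elements were looked for in the RefSeq mRNAs of Mmul_10, the macaque build that the authors aligned to. The search asked for the loop CAGTGN on the mRNA strand, flanked on either side by 5 bases that pair with each other (G-T pairs included). It also asked for a C just before the stem, without checking that this C was unpaired. Of the 8 genes, 4 had such a match, against 276 of all 21122 protein-coding genes with an mRNA entry (1.31%). The matches are shown because this element is known to tie iron storage, uptake and export to the iron of the cell. The C before the stem and the 6 loop bases are in capitals, 5′ to 3′ and with T for U.
*FTH1*, 5′ UTR, chr14:12158038-12158067, plus strand: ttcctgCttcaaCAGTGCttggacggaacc
*FTL*, 5′ UTR, chr19:48948185-48948214, plus strand: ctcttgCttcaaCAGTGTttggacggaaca
*SLC40A1*, 5′ UTR, chr12:76754963-76754992, minus strand: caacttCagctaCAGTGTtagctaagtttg
*TFRC*, 3′ UTR, chr2:797312-797341, minus strand: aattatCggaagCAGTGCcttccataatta
*TFRC*, 3′ UTR, chr2:796909-796938, minus strand: cattatCgggagCAGTGTcttccataatgt
*TFRC*, 3′ UTR, chr2:796844-796873, minus strand: ctgtatCggagaCAGTGGtctccatatgtt
*TFRC*, 3′ UTR, chr2:796796-796825, minus strand: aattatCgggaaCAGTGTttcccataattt

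The 2 storage genes and the exporter carried 1 match each, before the coding region, and the import receptor carried 4, all behind it. The loop began at base 23 of the *FTH1* mRNA and at base 47 of the *FTL* mRNA, close to the 5′ end in both. In *SLC40A1* it began at base 131, and 1 of 3 mRNAs held it. In *TFRC* the first loop began at base 3377 of an mRNA of 5086 bases and the other 3 lay between bases 3780 and 3893, in 1 of 2 mRNAs, the second of which has no UTR in RefSeq. No match was found in the mRNAs of *SLC11A2*, *CP*, *HEPH* or *TFR2*, nor in those of 39 other iron genes, which says only that these letters were not in those mRNAs. A TPM value gives the amount of an mRNA and does not show whether an element was bound.

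**Figure D1:**
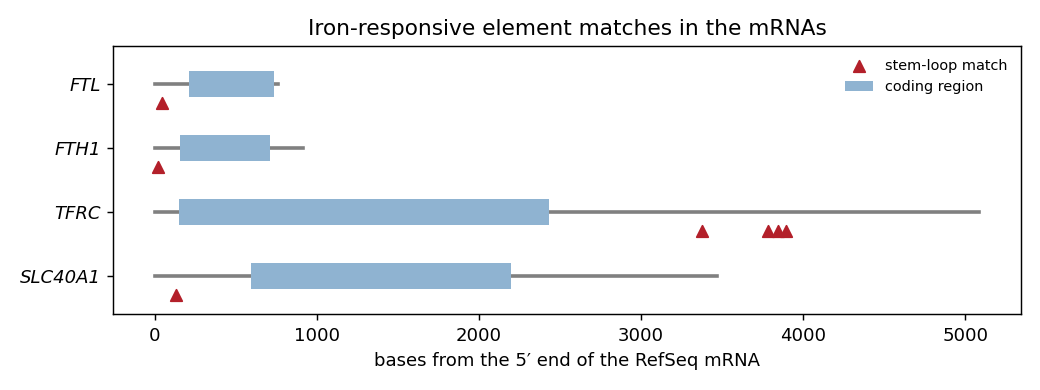
The x axis gives bases from the 5′ end of the RefSeq mRNA, with the coding region as a bar and each stem-loop match as a triangle. *FTL*, *FTH1* and *SLC40A1* have 1 match before the coding region, and *TFRC* has 4 matches behind it.

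The libraries differed strongly as a whole, which touches every value below. Rep1 listed 38.5% of the genes at 0 and Rep2 12.5%, and 1 read was worth 17.2 times as many TPM in Rep1 as in Rep2, so low levels in Rep1 rest on few reads. For the 14693 genes with a value above 0 in 1 or both libraries, the median difference (Rep1 minus Rep2) was -1.07 on the log2(TPM + 1) scale. The read numbers given below are the smallest whole numbers that give the ratio between Rep1 and Rep2 of a gene, hence lower bounds.

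Ferritin stood far above the other iron genes. *FTH1* (chr14:12158028-12161027, plus strand), the heavy chain that oxidises iron as it enters the shell, was at 1348 TPM in Rep1 and at 4910 TPM in Rep2, on at least 1073 and 67153 reads. Its mean was 3129 ± 2519 TPM (SD, n = 2), rank 22 of all genes listed. *FTL* (chr19:48948159-48949932, plus strand), the light chain that supports the iron core, was at 772 TPM in Rep1 and at 5321 TPM in Rep2, on at least 343 and 40645 reads. Its mean was 3046 ± 3217 TPM (SD, n = 2), rank 23. Both subunits were lower in Rep1, where *FTH1* ranked 111 and *FTL* 234, than in Rep2, where they ranked 15 and 12. Most genes of similar level ran the other way. Of the genes nearest in level, 66% for *FTH1* and 65.5% for *FTL* were higher in Rep1. Together *FTH1* and *FTL* made up 93.3% of the TPM of the 8 iron genes in Rep1 and 99.2% in Rep2.

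The balance of the subunits was not the same in the libraries. There were 1.75 *FTH1* transcripts per *FTL* transcript in Rep1 and 0.923 in Rep2, a ratio inside each library that its scaling does not touch. On the log2(TPM + 1) scale the mean difference between *FTH1* and *FTL* was 0.34 ± 0.65 (SD, n = 2), and it amounted to 0.191 times the SD of a single library, which was taken from how far Rep1 and Rep2 lay apart in the 200 genes closest in level. Their order was thus not resolved. Ferritin genes also have close copies: with at least 90% identity over at least 80% of the mRNA, *FTH1* matched 10 other places in Mmul_10 and *FTL* 4. The methods do not say how reads that align to several places were counted, so both levels are uncertain to that extent. *FTH1* overlaps *BEST1* on the opposite strand, which was at 2.7 and 2.0 TPM.

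The export and uptake genes were of middle level, and the exporter and the receptor were higher in Rep1, opposite to the ferritins. *SLC40A1* (chr12:76735391-76757702, minus strand), which encodes the cellular iron exporter, was at 63.8 TPM in Rep1 and at 29.1 TPM in Rep2, on at least 23 and 180 reads, a mean of 46.4 ± 24.6 TPM (SD, n = 2). *TFRC* (chr2:795620-828939, minus strand), the receptor that takes up transferrin-bound iron, was at 41.7 TPM in Rep1 and at 16.2 TPM in Rep2, a mean of 28.9 ± 18.0 TPM (SD, n = 2). Its read numbers reduce to 3 and 20, a weak lower bound. The exporter was above the receptor in both libraries, 1.53-fold in Rep1 and 1.80-fold in Rep2. This was the steadiest of the ratios between iron genes that were taken. Only some pairs were taken, and *CP* to *TFRC* was not among them, so other pairs may be steadier. *SLC11A2* (chr11:50595760-50647835, minus strand), which moves ferrous iron out of the endosome, was at 16.0 TPM in Rep1 and at 24.5 TPM in Rep2, on at least 5 and 131 reads. Its mean of 20.3 ± 5.95 TPM (SD, n = 2) had the smallest SD for its size among the 8 genes.

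*TFR2* (chr3:42701973-42723077, minus strand), the second transferrin receptor, known from hepatocytes and erythroid cells, was listed at 0 in Rep1 but reached 0.171 TPM in Rep2. Among the 200 genes nearest to it in Rep2 level, 77.0% were listed at 0 in Rep1, so this zero was the common case. *TFRC* was 94.6 times as high as *TFR2* in Rep2.

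Of the ferroxidases, *CP* was the more abundant. *CP* (chr2:51287440-51346840, minus strand), which astrocytes are known to make in a membrane-bound form, was at 30.5 TPM in Rep1 and at 11.1 TPM in Rep2, on at least 22 and 137 reads, a mean of 20.8 ± 13.8 TPM (SD, n = 2). It overlaps *HPS3* on the opposite strand, which was at 1.01 and 5.25 TPM. *HEPH* (chrX:62779681-62872297, plus strand), known in brain from oligodendrocytes, was listed at 0 in Rep1 but reached 2.81 TPM in Rep2, where *CP* was 3.93 times as high. Of the 200 genes nearest to *HEPH* in Rep2 level, 50.0% were listed at 0 in Rep1, so its absence from Rep1 does not show that it was missing from the nerve.

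**Figure D2:**
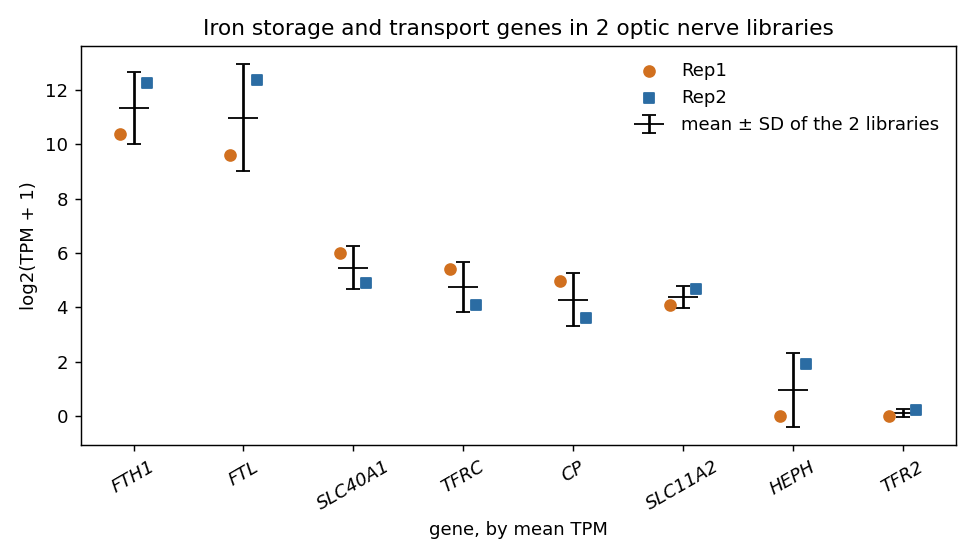
The y axis gives log2(TPM + 1) of the 8 iron genes in Rep1 (circles) and Rep2 (squares), with their mean and SD (n = 2), the genes being ordered by mean TPM. The ferritins stand apart at the top, *SLC40A1*, *TFRC*, *CP* and *SLC11A2* lie together in the middle, and *HEPH* and *TFR2* are listed at 0 in Rep1.

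Ordered by mean log2(TPM + 1), the genes ran *FTH1*, *FTL*, *SLC40A1*, *TFRC*, *SLC11A2*, *CP*, *HEPH* and *TFR2*. Of the 7 neighbouring pairs, 2 were more than 1 SD of a single library apart. These were *FTL* above *SLC40A1*, by 5.52 on the log2 scale or 3.32 SDs, and *CP* above *HEPH*, by 3.32 or 2.37 SDs. The 4 genes of the middle group followed each other within 0.446 SDs and were not resolved from one another. *HEPH* and *TFR2* were 0.996 SDs apart. Of all 28 pairs, 24 stood in the same order in both libraries, 3 in opposite order and 1 was tied at 0 in Rep1. The 3 pairs were *FTH1* with *FTL*, and *SLC11A2* with *TFRC* and with *CP*.

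The differences between Rep1 and Rep2 did not share a direction. Of the 8 genes, 3 were at least 2-fold higher in Rep1 on the log2(TPM + 1) scale, against 14.8% of the 14693 genes, and 3 were at least 2-fold lower, against 51.3%. At any size, 3 were higher in Rep1, against 24.1% of all genes, and 5 were lower, against 75.9%. The higher genes were *CP* with a log2 difference of 1.39, *TFRC* with 1.31 and *SLC40A1* with 1.11. The lower genes were *FTL* with -2.78, *HEPH* with -1.93, *FTH1* with -1.86, *SLC11A2* with -0.58 and *TFR2* with -0.23. Those at least 2-fold lower were *FTL*, *FTH1* and *HEPH*. *HEPH* and *TFR2* were listed at 0 in Rep1, so their differences rest on the pseudocount and they have no ratio of TPM. The median over the 8 genes was -0.40, beside -1.07 over all genes, and it was -1.02 with a pseudocount of 0.1.

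These differences were set against the spread between the libraries. The SD of a difference among the 200 genes nearest in level ran from 2.14 to 2.55 on the log2 scale for the 6 genes above 0 in both libraries. Of these 6 *FTL* alone exceeded it, at 1.09 SDs. This SD was taken about 0, so it includes any common shift of the nearest genes. Their median difference was 1.36 for *FTH1* and 1.40 for *FTL*, opposite in sign to the ferritins. It was between -1.48 and -1.25 for *CP*, *TFRC* and *SLC40A1*, again opposite to these genes, and -1.55 for *SLC11A2*. Between 26.5% and 36.5% of the nearest genes were higher in Rep1 for *CP*, *TFRC* and *SLC40A1*, and 26% for *SLC11A2*. Distances from the common shift of the nearest genes were not taken, so *FTL* standing alone holds only for an SD about 0. With the median of ratios as the scaling, a correction for a general log2 shift of -1.19 (Rep1 to Rep2), the difference was -1.59 for *FTL* and -0.67 for *FTH1*, was between 2.27 and 2.50 for *CP*, *TFRC* and *SLC40A1*, and turned to 0.55 for *SLC11A2*.

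**Figure D3:**
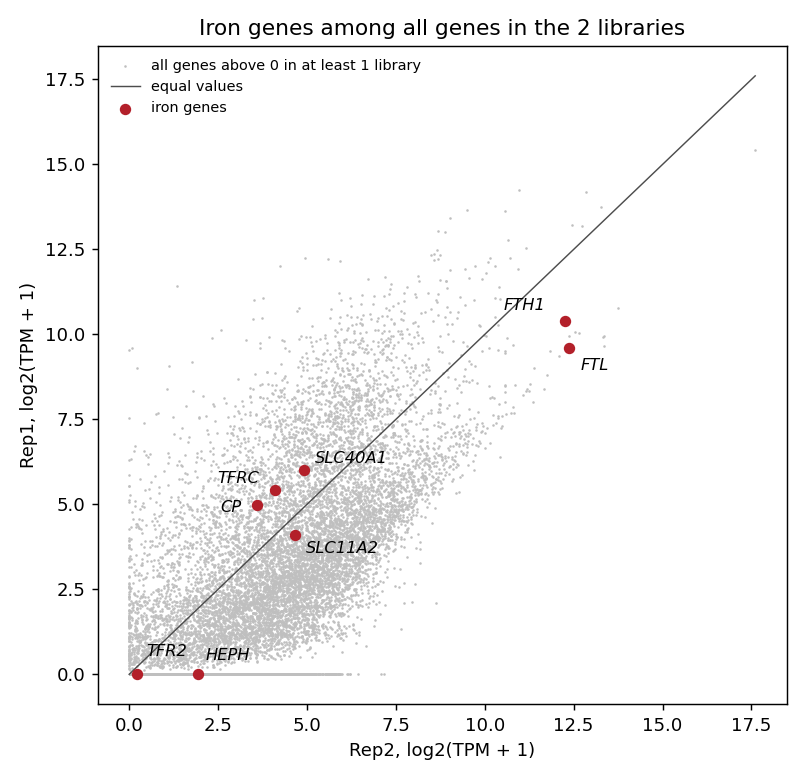
Each grey point is 1 of the 14693 genes detected in Rep1, Rep2 or both, with log2(TPM + 1) in Rep2 on the x axis and in Rep1 on the y axis, and the line marks equal values. *CP*, *TFRC* and *SLC40A1* lie above the line, and *FTH1*, *FTL*, *SLC11A2*, *HEPH* and *TFR2* below it.

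Cell markers differed between the libraries as well. The 8 oligodendrocyte markers, among them *MBP*, *MAG* and *MOG*, were all lower in Rep1, with differences from -2.96 to -2.17 and a summed level of 46086 TPM in Rep1 and at 212682 TPM in Rep2. *FTH1* at -1.86 lay just outside that range and *FTL* at -2.78 inside it. *FTL* also lay inside the range of the fibroblast markers (-4.33 to -2.03). Both ferritins lay inside those of the astrocyte (-6.55 to 1.26), microglia and macrophage (-3.999 to 0.794) and endothelial markers (-3.804 to 1.589). Their place was thus not particular to the oligodendrocyte markers. Per *MBP* transcript there were 0.0308 *FTH1* transcripts in Rep1 and 0.0246 in Rep2, and 0.0176 and 0.0267 of *FTL*. The summed level of 8 astrocyte markers was 1148 TPM in Rep1 and at 7342 TPM in Rep2 (7 of 8 lower in Rep1), that of 8 microglia and macrophage markers 224 and 492 TPM (7 of 8 lower), that of 8 endothelial markers 63.8 and 148 TPM (6 of 8 lower) and that of 8 fibroblast markers of the meninges 1887 and 16755 TPM (8 of 8 lower). Of all genes, 75.9% were lower in Rep1, and with the median of ratios the median difference was -0.22 for the endothelial markers and between -1.66 and -1.17 for the other 4 lists. *CP*, *TFRC* and *SLC40A1* thus ran against the sums of the nerve cell markers. In bulk tissue, fewer cells of a type and less RNA per cell cannot be told apart.

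Markers of other tissues gave a mixed picture. The summed level of 8 photoreceptor markers was 3322 TPM in Rep1 and 10.2 TPM in Rep2. Of the 8, 7 were higher in Rep1, against 24.1% of all genes, and *CRX* was at 0 in Rep2. Of 6 erythroid markers, which belong to cells with high *TFRC* in the marrow, *HBB* was at 4515 TPM in Rep1 and at 1087 TPM in Rep2 and *ALAS2* at 21.9 and 9.84 TPM, whereas the other 4 were listed at 0 in Rep1 and were at most 1.06 TPM in Rep2. The 8 pigment epithelium markers summed to 129 TPM in Rep1 and 111 TPM in Rep2, of which *RLBP1* alone gave 76.7 and 6.12 TPM. Of the 8, 6 were lower in Rep1, against 75.9% of all genes, with *LRAT*, *RGR* and *TYR* at 0 in Rep1. Of 8 hepatocyte markers, the cells that make most ceruloplasmin of plasma, *ALB*, *APOA2*, *FGG* and *AHSG* were at 0 in both libraries and *APOA1* and *FGB* at 0 in Rep1. The sum, 27.4 and 147 TPM, came mostly from *SERPINA1* and *TTR*. The part of these tissues in the iron gene levels was not tested.

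**Figure D4:**
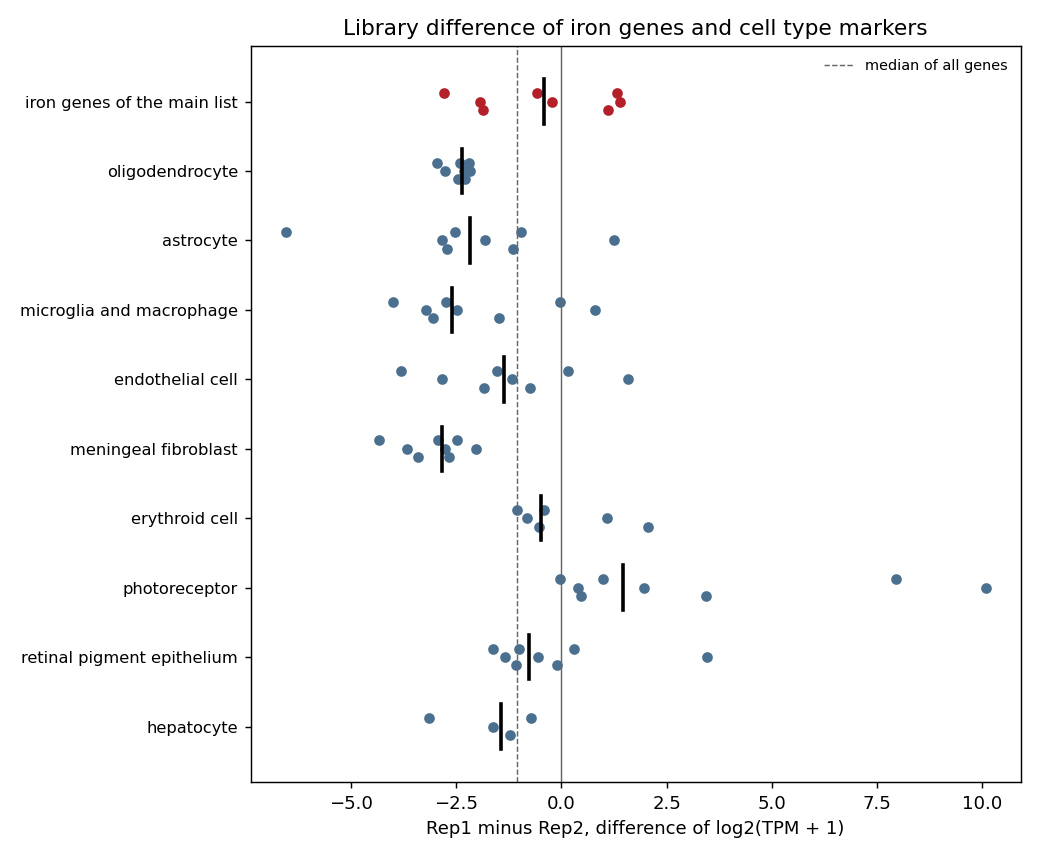
The x axis gives the difference between Rep1 and Rep2 on the log2(TPM + 1) scale for the iron genes (top line) and for markers of 9 cell types, each point a gene and each bar the median of its list, with the median of all genes as a dashed line. Oligodendrocyte and fibroblast markers lie wholly below 0, photoreceptor markers reach 10.1, and the iron genes spread from -2.78 to 1.39.

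The wider iron pathway was described from a list of 40 further genes, of which 37 were listed and 36 were above 0. In Rep1, 5 of the 36 were at least 2-fold higher, against 14.8% of all genes, and 23 at least 2-fold lower, against 51.3%. Their median difference was -1.31, beside -1.07 over all genes, and it was -0.59 with the median of ratios, beside -0.38 over all genes. Within the cell, the sensors of iron were present in both libraries. The iron regulatory proteins that bind the stem-loops shown above are encoded by *ACO1*, at 2.74 TPM in Rep1 and at 11.0 TPM in Rep2, and *IREB2*, at 32.2 and 21.0 TPM. *FBXL5*, whose protein marks iron regulatory proteins for breakdown when iron is plentiful, was at 818 and 153 TPM, on at least 588 and 1895 reads. Of these 3 genes, *IREB2* and *FBXL5* were higher in Rep1, against 24.1% of all genes. In Rep1 the lower bound was 1 read for *ACO1* and 24 reads for *IREB2*.

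All 5 ferrireductase genes were lower in Rep1, as were 75.9% of all genes, and with the median of ratios *STEAP1* turned to 0.31 and *STEAP2* was at -0.012. *CYBRD1*, which encodes a reductase of the plasma membrane, was the highest of the 5 at 140 TPM in Rep1 and at 487 TPM in Rep2. *STEAP3*, the endosomal reductase that works with transferrin uptake, was listed at 0 in Rep1 and at 1.12 TPM in Rep2. *STEAP1*, *STEAP2* and *STEAP4* were at 1.87, 3.96 and 0 TPM in Rep1 and at 3.16, 9.13 and 1.53 TPM in Rep2. The importer of iron outside transferrin encoded by *SLC39A14* was at 18.1 and 47.7 TPM, and its relative *SLC39A8* was listed at 0 in Rep1 and at 14.7 TPM in Rep2.

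The partners of ferritin differed among themselves. *PCBP1* and *PCBP2*, which encode chaperones that deliver iron to ferritin and also bind RNA, were at 1290 and 854 TPM in Rep1 and at 58.7 and 11.9 TPM in Rep2, on at least 761 and 597 reads in Rep1. Their log2 differences of 4.43 and 6.05 were the highest of the 36 genes and opposite to those of the ferritins. *NCOA4*, which targets ferritin to the lysosome, ran the other way, at 3.23 TPM in Rep1 and at 28.3 TPM in Rep2. *SCARA5*, which encodes a receptor for ferritin outside the cell, was at 8.12 and 37.5 TPM.

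Of 7 mitochondrial iron genes, 5 were lower in Rep1 (*NFS1* turned to 0.40 with the median of ratios), *SLC25A28* (mitoferrin 2) was higher, at 69.0 TPM against 26.4 TPM, and mitochondrial ferritin (*FTMT*) was listed at 0 in both libraries. Mitoferrin 1 (*SLC25A37*) was at 6.34 TPM in Rep1 and at 47.7 TPM in Rep2, and *ISCU*, the scaffold for iron-sulphur clusters, at 26.1 and 180 TPM. *NFS1* was at 5.05 and 8.35 TPM, and *FECH*, which inserts iron into haem, at 14.7 and 50.2 TPM. All 9 genes of haem uptake, export and breakdown were lower in Rep1, against 75.9% of the 14693 genes. In Rep1, 5 of them were listed at 0, against 38.5% of all 16684 genes. The latter share includes genes at 0 in both libraries, which the 9 genes do not, so it is not a like comparison. With the median of ratios *LRP1* turned to 0.17. *HMOX1*, the inducible haem oxygenase, was at 13.1 TPM in Rep1 and at 147 TPM in Rep2, on at least 2 and 385 reads, and the constitutive *HMOX2* at 21.6 and 114 TPM. *CD163*, the scavenger receptor of macrophages for haemoglobin, was listed at 0 in Rep1 and at 22.7 TPM in Rep2.

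The hepcidin axis controls ferroportin from the liver. Hepcidin itself (*HAMP*) was listed at 0 in Rep1 and at 0.529 TPM in Rep2, *TMPRSS6* was at 0 and 0.0552 TPM, *HFE* at 4.56 and 26.7 TPM and *BMP6* at 2.49 and 11.9 TPM. Among other iron-binding genes, *LTF* and *LCN2* were listed at 0 in Rep1 and at 5.89 and 0.699 TPM in Rep2, and *SLC22A17*, known as a receptor for the *LCN2* protein, was at 315 TPM in Rep1 and at 77.9 TPM in Rep2.

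**Figure D5:**
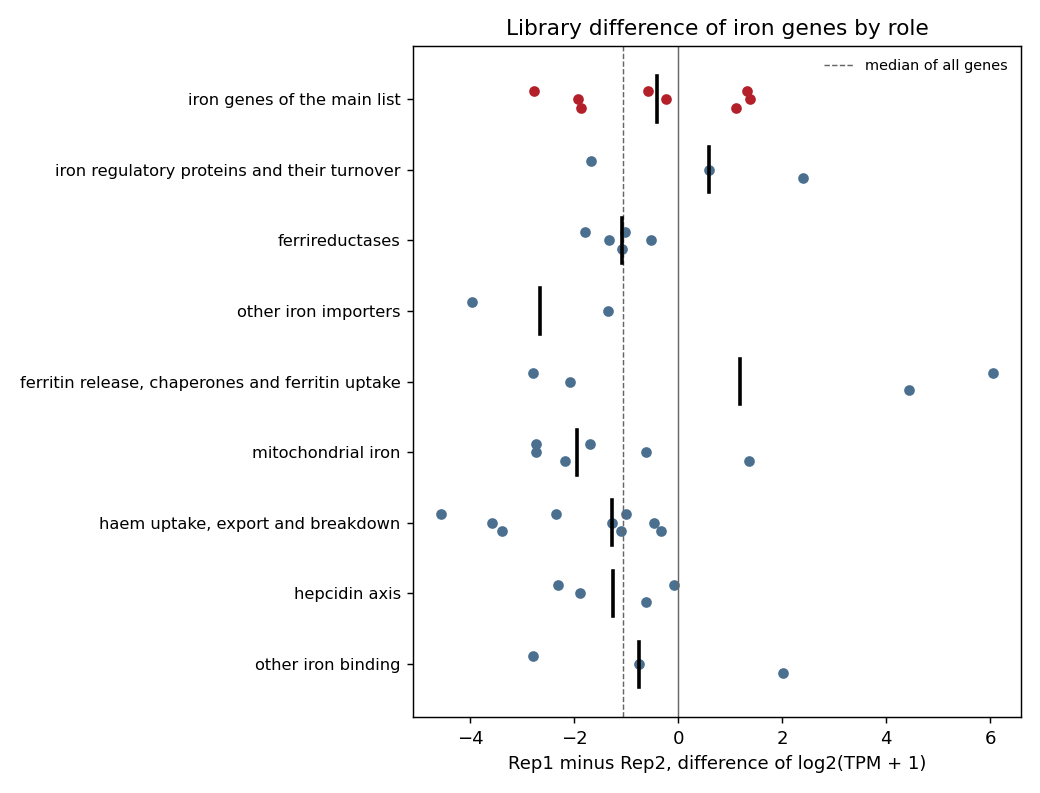
The x axis gives the difference between Rep1 and Rep2 on the log2(TPM + 1) scale for the 8 iron genes (top line) and 36 further iron genes by role, each point a gene and each bar the median of its list. Ferrireductases, haem genes and the hepcidin axis lie wholly below 0 in the deposited values (with the median of ratios *STEAP1* and *LRP1* do not), whereas *PCBP1* and *PCBP2* reach 4.43 and 6.05.

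The protein-coding genes whose values were most like those of each iron gene were found by the distance in log2(TPM + 1) over the 2 libraries, a likeness over 2 points that many genes share. The myelin gene *MOBP* was among the 2 nearest to *FTH1* (distance 0.448), and *IGFBP6* (0.122) and *MOBP* (0.370) were nearest to *FTL*. *MMD* and *MBIP* were nearest to *TFRC* (0.0485 and 0.0727), *PGP* and *CRIM1* to *SLC40A1* (0.0203 and 0.0407), *NFKBIL1* and *KLHL20* to *CP* (0.0439 and 0.0483), and *ZCCHC10* and *USP1* to *SLC11A2* (0.0387 and 0.0474). No gene lay within 0.1 of either ferritin. For *HEPH* 163 genes did, with *ZNF853* and *PNMA2* nearest, and for *TFR2* 528 did, with *SMCO2* and *LRRC71* nearest, all 4 being listed at 0 in Rep1 like the iron genes themselves.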

How the data were processed

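Total RNA of macaque optic nerve was amplified as cDNA (SMARTer v4 kit) and sequenced as 2 libraries. Per the submitters' processing notes and the paper's methods, the authors used Trim Galore 0.6.6 for trimming, STAR 2.7.1a for alignment to Mmul_10 and featureCounts 1.5.3 for counting, then computed TPM. The deposited values are TPM, which hold neither read totals nor confidence intervals. In each library a transcript of large share lowers all others. The columns Rep1 and Rep2 match no sample title and were used as replicates of the condition.

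Differences were taken on log2(TPM + 1), which understates low genes, with Python 3.11.15, numpy 2.4.6 and pandas 2.3.3. Read numbers were found from value ratios with a tolerance of 1e-12 and a largest product of 10000000000. Copies in the genome were found with blastn 2.17.0. RefSeq annotation of Mmul_10 gave coordinates and mRNAs, and all 8 symbols matched. Simulated data were used to test the constant between the libraries, the read numbers and the SD of a single library. The SD was tested without a shift between the libraries. The searches for elements and for copies were not tested in this way.

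The genes and lists were chosen with earlier results of these data known. The text names the iron genes, further iron genes, cell markers and the 2 nearest genes of each iron gene. *HPS3* and *BEST1* were named for their overlap. Values of a few genes of these lists are not given here.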

Additional observations from a re-analysis of the deposited data

How the results depend on the processing

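No paired analysis was possible because both libraries belong to 1 group. The depth of Rep1 limits the genes listed at 0 there, and 2 libraries give a wide SD. The median log2 difference of the 8 iron genes, -0.40 as deposited, turned to 0.20 with the median of ratios and to 1.10 with Rep1 scaled to the oligodendrocyte markers of Rep2, a scaling chosen after seeing the data that multiplies Rep1 by 5.12. Under the latter, 3 of the 8 iron genes and 19 of the further 36 were lower in Rep1, against 5 and 30 as deposited, and *FTH1* turned to 0.49 while *FTL* stayed at -0.43. The log2 ratio of *FTH1* to *FTL* ran from -0.12 to 0.80 between the single libraries, so its sign rests on Rep1. Other alternatives (a pseudocount of 0.1, leaving out the 10 most abundant genes, 500 nearest genes, an SD that leaves out the mean shift of those genes) left the counts within 1.5 times and the medians within the spread. That spread, 2.28, is the SD of the difference of a single gene, so it is a loose limit for a median of many genes. A pseudocount of 0.1 gave medians of -1.02 for the 8 iron genes and -2.20 for the further 36, the latter being -0.059 with the oligodendrocyte scaling. The neighbouring pairs more than 1 SD apart went from 2 to 3 with the SD that leaves out the mean shift. Of 71 values for single genes under alternatives, 64 moved less than the SD of the libraries (a single library always does so for a mean TPM) and 7 moved more, all of them percentiles.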
